A study of Mus musculus with 10 samples.

Results

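Intermediate filaments are the rope-like fibres of the cytoskeleton, and the genes described here are 10 members of that family, listed by name: Nefl, Nefm, Nefh, Ina and Gfap, which are used by neurons or astrocytes, Nes, which is used by neural progenitors, and Vim, Krt8, Krt18 and Lmna, which are used by many other cell types. Of these 10 genes, 9 were matched to a probe by RefSeq accession, with 14 probes in all out of 41174. No probe carried the RefSeq accession of Ina, and since 66.1% of probes could be named in this way, a probe of Ina may be among the unnamed, and no value is given for it. Nefl, Nefm, Nefh and Gfap are called the neural genes and Vim, Krt8, Krt18 and Lmna the general genes, while Nes is kept apart.

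The data were 10 dual dye arrays, and on each of them the Cy-5 channel held RNA from the left hemibrain of its own male C57BL/6J mouse. The mice were single-housed from 3 weeks of age and were 5 months old at death. For 20 weeks they were fed a standard lab diet (SD) or a diet enriched in fish oil (FD). By the paper FD was richer in n-3 PUFA and in total fat than SD, and lower in n-6 PUFA. By their diet entries all 10 Cy-5 samples are FD and Cy-3 is pooled SD hemibrain, by their descriptions the samples are controls, and the methods speak of a commercial reference RNA in Cy-3 and of fewer arrays, so the diet of each array was not settled and no diet comparison was made. Cy-5 always held the hemibrain RNA, with no dye swap, so the effect of the dye and the difference between the RNAs cannot be told apart, and the Cy-3 RNA has no spread of its own. The arrays are named by the animal, and they may hold more than 1 diet, so the SD over arrays is the spread between these animals and hybridisations.

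An intermediate filament is built from long coiled-coil subunits, and which subunits a cell makes depends on its type. Neurofilaments, made of light (Nefl), medium (Nefm) and heavy (Nefh) subunits with alpha-internexin (Ina), fill axons and set their calibre. Astrocytes carry Gfap, stem and progenitor cells of the nervous system carry nestin (Nes) together with vimentin (Vim), fibroblasts and other mesenchymal cells carry vimentin, simple epithelia pair Krt8 with Krt18, and A-type lamins (Lmna) line the nucleus of most differentiated cells.

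Depth on an array is the brightness of the spots over background. C10-434 was dim in Cy-5, where 49.8% of probes cleared the background (68.2% to 76.9% elsewhere). After background correction and dye normalization it gave the lowest Cy-5 signal for 12 of the 14 filament probes and the lowest Cy-3 signal for 13. The low ends of the signal ranges are thus mostly those of this array. Its Cy-3 spots were not faint before dye normalization. Their median background-subtracted signal was 119, against 95.8 to 125 elsewhere. Even so, 61.9% of probes cleared the background in Cy-3 (70.3% to 79.1% elsewhere). Across all probes the log2 Cy-5/Cy-3 ratio correlated between arrays with r from 0.868 to 0.967, and no probe was saturated. The slides numbered 2 and 3 in the plots held 4 arrays each, and the other 2 slides held 1 array each.

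The filament genes fell on opposite sides of a ratio of 1. All 6 probes of the neural genes were higher in Cy-5 than in Cy-3 and all 8 probes of Nes and the general genes were lower, by limma with Benjamini-Hochberg adjustment over all probes. Over the whole array 37.4% of probes were higher and 39.5% were lower by the same rule, so passing this test was common. All 6 and all 8 also had a mean log2 ratio of at least 1 in size, which 20.5% of all probes had as higher and 23.1% as lower. Over the whole array 10% of probes had a mean log2 ratio below -2.04 and 10% one above 2.31, and the median was 0.00. RNA from a whole hemibrain was measured, and in such a bulk sample fewer cells of a type and less RNA per cell cannot be told apart.

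**Figure D1:**
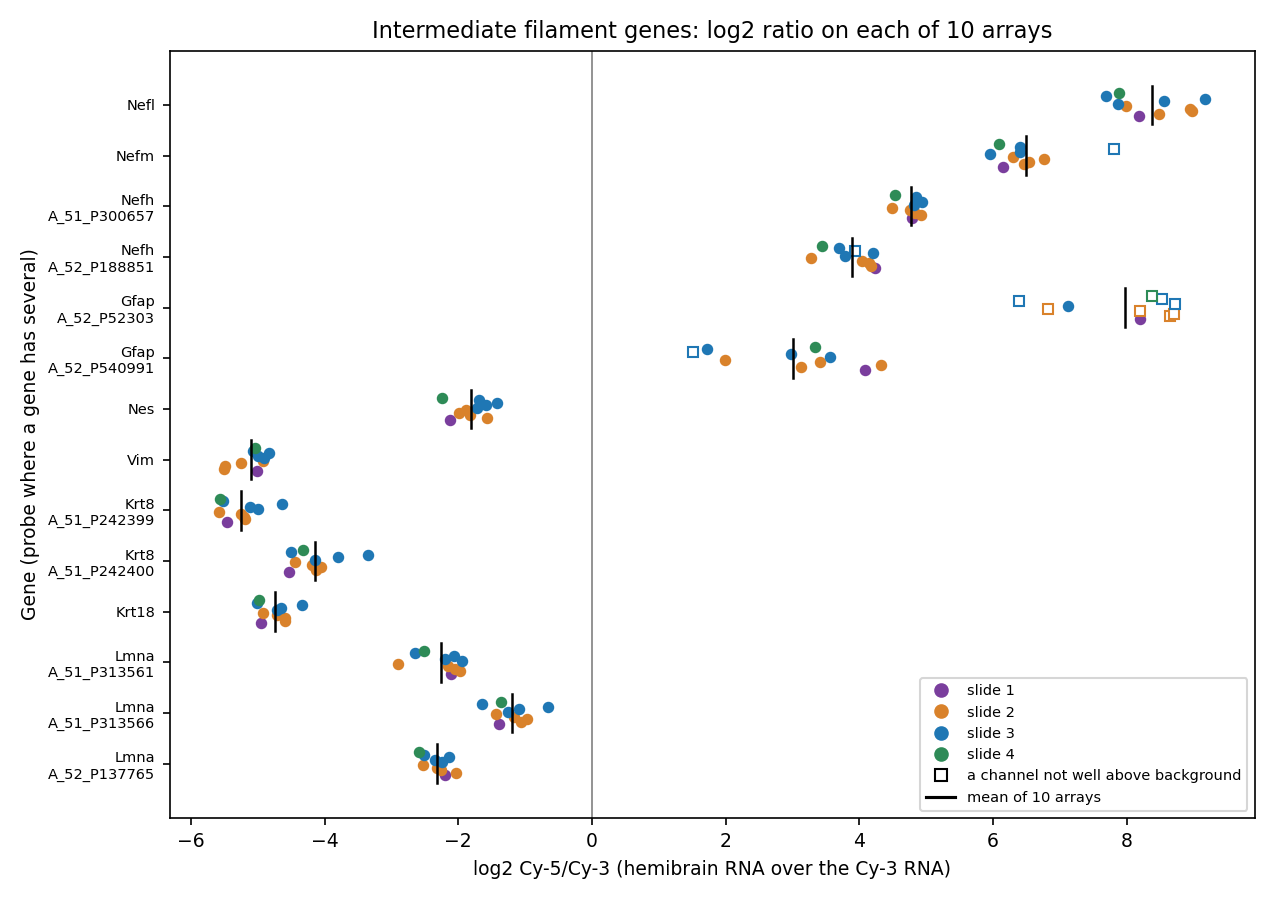
Log2 Cy-5/Cy-3 of each probe of the 9 filament genes on each of 10 arrays, coloured by slide, with a bar at the mean. The probes of Nefl, Nefm, Nefh and Gfap lie between 1.51 and 9.18 and those of Nes, Vim, Krt8, Krt18 and Lmna between -5.58 and -0.66, and open squares show arrays on which a channel was not well above background.

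Nefl, the core subunit on which neurofilaments assemble, had the highest mean ratio of the family. Its log2 ratio was 7.69 on the lowest array (C10-435), 8.34 in the median and 9.18 on the highest (C10-434), with 8.98 the highest of the other 9. All 10 arrays lay far above 0, and the array with the highest ratio was the dim one, on which the Cy-3 signal of the probe was also the lowest, at 75.7 against at most 327 elsewhere. The mean of 8.38 ± 0.53 (SD, n = 10) is a 333-fold higher signal in Cy-5 (limma, adjusted p = 1.06e-13), and only 0.0996% of all probes had a higher mean ratio. In intensity the Cy-5 signal of Nefl ran from 43884 to 91102, so that the channels did not come near each other on any array.

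Nefm, the medium subunit, is the neighbour of Nefl on chromosome 14 in the RefSeq gene order. Its log2 ratio was 5.96 on the lowest array (C10-424), 6.40 in the median and 7.81 on the highest, again C10-434. The other 9 arrays ended at 6.76, and on C10-434 Nefm was not well above background in Cy-3, with a signal of 37.7. The mean was 6.49 ± 0.52 (SD, n = 10), 89.7-fold (limma, adjusted p = 6.11e-13), and 6.34 without C10-434. The probe of Nefm was printed 10 times on each array, which gives the error of a spot beside the spread between arrays, and the latter holds animal, labelling and hybridisation together. The SD over spots within an array was 0.19 in the median, and the SD of the array means was 0.52, or 0.25 without C10-434.

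Nefh, the heavy subunit that is heavily phosphorylated in mature axons, was read by 2 probes of the same RefSeq transcript. The brighter probe (A_51_P300657) ran from 4.49 on C10-423 through a median of 4.83 to 4.94 on C10-425, and the other (A_52_P188851) from 3.27 on C10-423 through 3.99 to 4.23 on C10-413. Both were well above 0 on every array and both were lowest on C10-423. The means were 4.78 ± 0.15 and 3.89 ± 0.33 (SD, n = 10), or 27.4-fold and 14.9-fold (limma, adjusted p = 2.34e-14 and 2.16e-12). The brighter probe was the steadier one, with an SD larger than that of only 4.40% of all probes, and it gave the higher ratio on all 10 arrays, by 0.55 to 1.21. On every array the ratios of the 3 neurofilament subunits ranked Nefl, Nefm, Nefh, and their ranges met only through the Nefm value of 7.81 on C10-434, which exceeds the lowest Nefl value of 7.69.

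**Figure D2:**
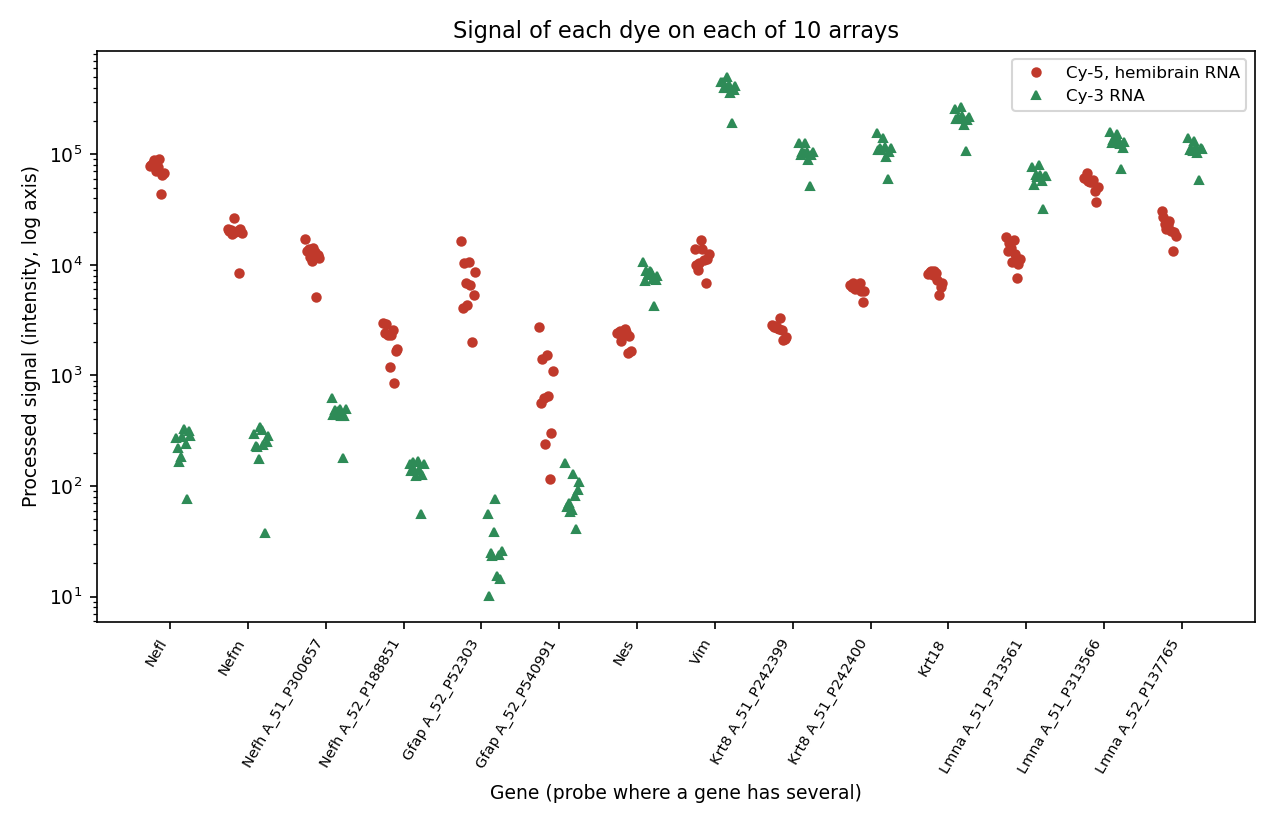
Processed signal of each dye for each probe on the 10 arrays, as intensity on a log axis, with circles for Cy-5 and triangles for Cy-3. Nefl reached 91102 in Cy-5 with at most 327 in Cy-3, Vim reached 503082 in Cy-3 with 6793 to 16652 in Cy-5, and of the 14 probes the dimmer Gfap probe is the one whose channels share a range of signals.

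Gfap, the filament protein of astrocytes, was the most variable of the family, and it needs both of its probes to be described, since they carry accessions of different RefSeq transcripts. The brighter probe (A_52_P52303) ran from 6.40 on C10-434 (6.82 without it) through a median of 8.30 to 8.73 on C10-425. The other (A_52_P540991) ran from 1.51 on C10-434 (1.72 without it) through 3.23 to 4.32 on C10-416. Every value was above 0, but the probes differed by 3.57 to 6.81 on the log2 scale, the largest gap between probes of any of these genes. The means were 7.97 ± 0.86 and 3.00 ± 0.96 (SD, n = 10), or 251-fold and 8.02-fold (limma, adjusted p = 6.02e-12 and 3.27e-07). The ratio of the brighter probe rests on a Cy-3 signal of 10.1 to 76.0 that was well above background on only 2 arrays, so its size is uncertain: with the normexp background correction the mean was 3.78, and with floored background-subtracted signals it was 5.18. The sign did not change with any of these settings. The other probe was well above background in each dye on 9 arrays, and its lowest Cy-5 signal, 116 on C10-434, lay within the Cy-3 range of 40.5 to 163.

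The spread of Gfap was also present in the Cy-5 level, although the normalization of that level draws on both dyes. This measure was taken up after the values were seen. After loess and scaling of the average brightness between arrays, the SD of the log2 Cy-5 level was 0.60 for the brighter probe and 1.15 for the other. These are larger than the SD of 94.9% and 99.7% of the 20333 probes whose Cy-5 spots cleared the background throughout. The dimmer Gfap probe is not itself among those probes, because it did not clear the background in Cy-5 on C10-434. Without that array the SD was 0.57 for the brighter probe and 1.09 for the dimmer. The other 8 astrocyte markers had an SD between 0.19 and 0.36. The Gfap probes moved together over the arrays (r = 0.94 over 10 arrays, 0.93 without C10-434, a description of points that share their arrays), with C10-413 highest in both at log2 levels of 13.8 and 11.2, C10-416 next in both, and C10-423 and C10-434 lowest in both, at 12.0 each for the brighter probe and at 7.79 and 7.94 for the other. In processed signal the highest array exceeded the lowest by 8.13-fold and 23.8-fold, and by 4.07-fold and 11.4-fold when C10-434 was left out. The correlation of Gfap with the other astrocyte markers over the 10 arrays ranged from -0.89 for S100b, a calcium-binding protein of astrocytes, to 0.68 for Aldh1l1, a folate enzyme. Whether diet has a part in this spread was not tested, because the diet of each array is not settled.

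**Figure D3:**
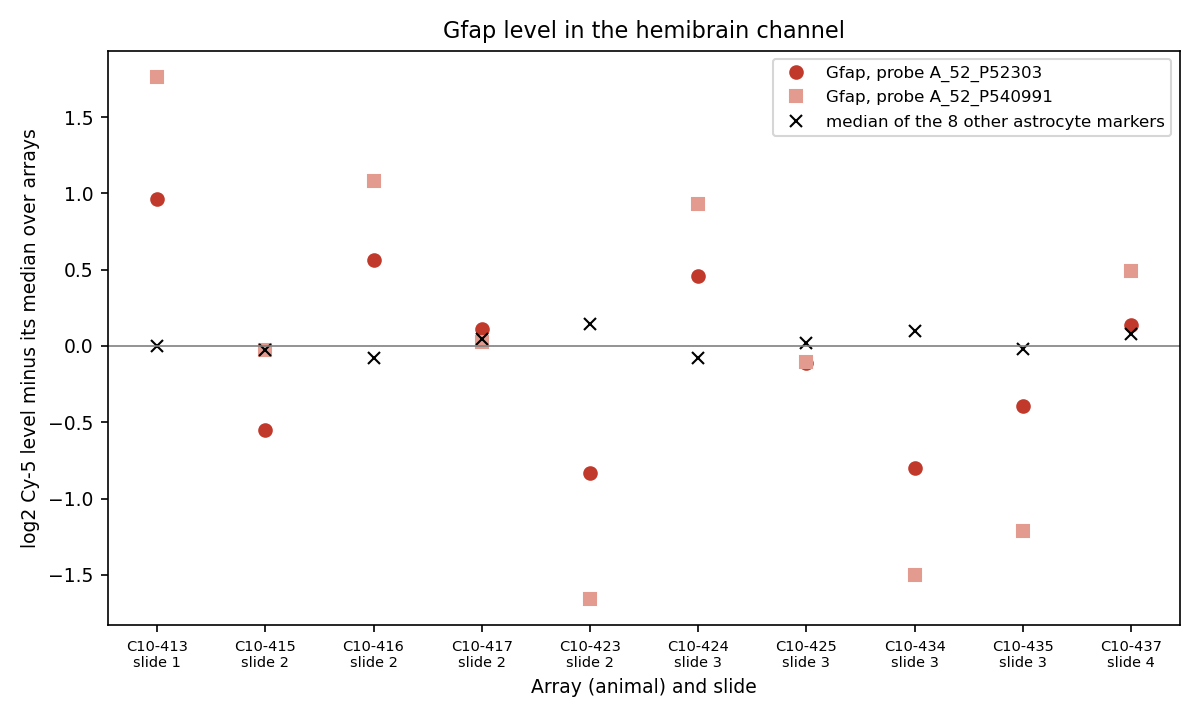
Log2 Cy-5 level of each Gfap probe on each array minus that probe's median over the 10 arrays, with the median over the 8 other astrocyte markers, each centred in the same way, as crosses. Both Gfap probes are highest on C10-413 and lowest on C10-423 and C10-434, while the crosses stay between -0.08 and 0.15.

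The gap between probes of a gene also differed between arrays. In the Cy-5 level the brighter Gfap probe exceeded the other by 2.56 on C10-413 and by 4.18 on C10-423, and the brighter Nefh probe exceeded the other by 2.26 on C10-416 and by 3.15 on C10-423. C10-423 and C10-435 had the largest and the next largest gap for both genes. Over the 10 arrays the gaps of Gfap and Nefh correlated with r = 0.64. Of the other 5 pairs among Gfap, Nefh, Krt8 and Lmna, Krt8 with Lmna stood at 0.67, Gfap with Lmna at 0.56, Nefh with Lmna at 0.17, Gfap with Krt8 at 0.09 and Nefh with Krt8 at -0.04, all as a description. RNA quality per array was not analysed here.

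Nes, whose protein is the filament subunit of neural stem cells and is also made by blood vessel cells, was lower in Cy-5. Its log2 ratio was -2.24 on the lowest array (C10-437), -1.77 in the median and -1.43 on the highest (C10-434), or -1.57 without that array. No array reached 0, and the channels did not overlap, with Cy-5 signals of 1586 to 2632 and Cy-3 signals of 4266 to 10619. The mean was -1.81 ± 0.26 (SD, n = 10), 3.49-fold lower in Cy-5 (limma, adjusted p = 6.08e-10). The Nes probe was printed 10 times per array as well, and its SD over spots was 0.08 in the median against 0.26 between array means. Nes thus had the sign of the general genes, and it cleared the background in both dyes throughout.

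The promoters of Gfap, Vim, Krt8 and Krt18 are shown because these genes stood at the ends of the range and because Krt8 and Krt18, whose proteins form a pair, are neighbours on chromosome 15 that are transcribed away from each other. The arrays measured RNA alone and hold no measurement on these regions. Each is the 250 bases before the RefSeq start, on the strand of the gene, from RefSeq with build GRCm38.p6, and capitals mark matches on either strand. The TATA box was searched as TATAAA. The GC box was searched as GGGCGG, and the CCAAT box by those letters of its name.
Gfap, chr11:102897201-102897450, minus strand: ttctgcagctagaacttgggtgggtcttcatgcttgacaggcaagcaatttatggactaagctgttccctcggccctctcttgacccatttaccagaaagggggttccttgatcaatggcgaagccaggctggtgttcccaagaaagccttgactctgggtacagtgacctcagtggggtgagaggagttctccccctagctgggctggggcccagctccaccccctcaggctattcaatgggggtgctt
Vim, chr2:13574061-13574310, plus strand: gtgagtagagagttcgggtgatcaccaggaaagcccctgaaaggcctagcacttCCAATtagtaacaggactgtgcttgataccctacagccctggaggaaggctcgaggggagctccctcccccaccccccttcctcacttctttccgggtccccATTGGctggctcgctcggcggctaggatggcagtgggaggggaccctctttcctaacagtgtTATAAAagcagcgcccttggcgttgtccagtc
Krt8, chr15:102004343-102004592, minus strand: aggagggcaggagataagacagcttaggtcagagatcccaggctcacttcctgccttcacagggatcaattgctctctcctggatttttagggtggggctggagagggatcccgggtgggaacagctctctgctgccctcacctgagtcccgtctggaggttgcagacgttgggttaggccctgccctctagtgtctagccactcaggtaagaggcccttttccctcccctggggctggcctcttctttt
Krt18, chr15:102027966-102028215, plus strand: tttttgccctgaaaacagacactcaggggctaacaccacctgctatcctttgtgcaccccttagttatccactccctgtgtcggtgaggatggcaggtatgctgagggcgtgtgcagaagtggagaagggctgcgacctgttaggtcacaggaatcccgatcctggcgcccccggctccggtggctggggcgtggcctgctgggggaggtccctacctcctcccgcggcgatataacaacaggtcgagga

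Vim was the only one of these 4 windows with a match, with a TATA box at -32 and CCAAT boxes at -196 and -94, counted from the start to the first base of the match. Of 32851 RefSeq promoters, 12.4% held the TATA box letters in this window, 32.7% the GC box and 33.8% the CCAAT box. CpG dinucleotides numbered 2 for Gfap, 8 for Vim, 3 for Krt8 and 12 for Krt18, against a median of 6.00 over all promoters. Promoter entries matched 7 of the 10 genes, and Nefl, Nefm and Nefh had none.

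Vim, the filament of mesenchymal cells that is also made by immature astrocytes and blood vessel cells, had the lowest mean ratio among the brightest probes of these genes. Its log2 ratio was -5.50 on the lowest array (C10-415), -5.03 in the median and -4.83 on the highest (C10-434), or -4.91 without that array. The arrays lay close together, and slides 2 and 3 overlapped. The mean was -5.10 ± 0.24 (SD, n = 10), 34.4-fold lower in Cy-5 (limma, adjusted p = 5.35e-14), and 99.4% of all probes had a higher mean. The low ratio of Vim did not mean a dim spot. Its Cy-5 signal of 6793 to 16652 cleared the background each time, and its Cy-3 signal was 192795 to 503082.

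Krt8 and Krt18, the keratin pair of simple epithelia, were low to a like degree. The brighter Krt8 probe (A_51_P242400) ran from -4.54 on C10-413 through a median of -4.17 to -3.36 on C10-434, and the other (A_51_P242399) from -5.58 on C10-423 through -5.24 to -4.63 on C10-434. The probe of Krt18 ran from -5.02 on C10-435 through -4.71 to -4.34 on C10-434. C10-434 gave the highest ratio for all 3 probes, and without it they ended at -3.80, -4.99 and -4.60. The means were -4.15 ± 0.36 and -5.25 ± 0.30 for Krt8 and -4.75 ± 0.22 for Krt18 (SD, n = 10), or 17.7-fold, 38.1-fold and 26.8-fold lower in Cy-5 (limma, adjusted p = 1.97e-12, 1.04e-13 and 5.81e-14). The Krt8 probes kept their order on all 10 arrays, so Krt18 lay between the readings of its partner and no order of the pair can be given. Both keratins cleared the background in Cy-5 throughout.

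Lmna, which encodes lamins A and C of the nuclear lamina, was read by 3 probes of the same transcript accession. By the brightest probe of each gene its ratio was the weakest of the family, while the other 2 probes gave ratios further from 0 than that of Nes. The brightest probe (A_51_P313566) ran from -1.64 on C10-435 through a median of -1.21 to -0.66 on C10-434 (-0.98 without it). The others ran from -2.90 through -2.13 to -1.95 (A_51_P313561) and from -2.59 through -2.29 to -2.03 (A_52_P137765). All 3 stayed below 0 on every array, and the brightest gave the highest ratio each time. The means were -1.20 ± 0.28, -2.25 ± 0.32 and -2.32 ± 0.18 (SD, n = 10), or 2.30-fold, 4.77-fold and 4.98-fold lower in Cy-5 (limma, adjusted p = 6.43e-08, 2.97e-10 and 7.39e-12). In the median over arrays A_51_P313561 minus the brightest probe was -1.03, the brightest probe minus A_52_P137765 was 1.13, and A_51_P313561 minus A_52_P137765 was 0.08.

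The contrast between the neural and the general genes was taken within each array, as the median log2 ratio of Nefl, Nefm, Nefh and Gfap minus that of Vim, Krt8, Krt18 and Lmna. It was 10.95 on the lowest array (C10-434), 11.8 in the median and 11.9 on the highest (C10-416), with an SD of 0.39 (n = 10). On every array the lowest neural gene, at 4.49 to 4.94, lay above the highest general gene, at -1.64 to -0.66. The contrast was 11.2 to 11.9 on slide 2 and 10.95 to 11.8 on slide 3, so the slides overlapped. It moved to 9.33 with the normexp correction and to 9.81 with floored signals, and no test was made on it because the genes were chosen by name with results known.

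**Figure D4:**
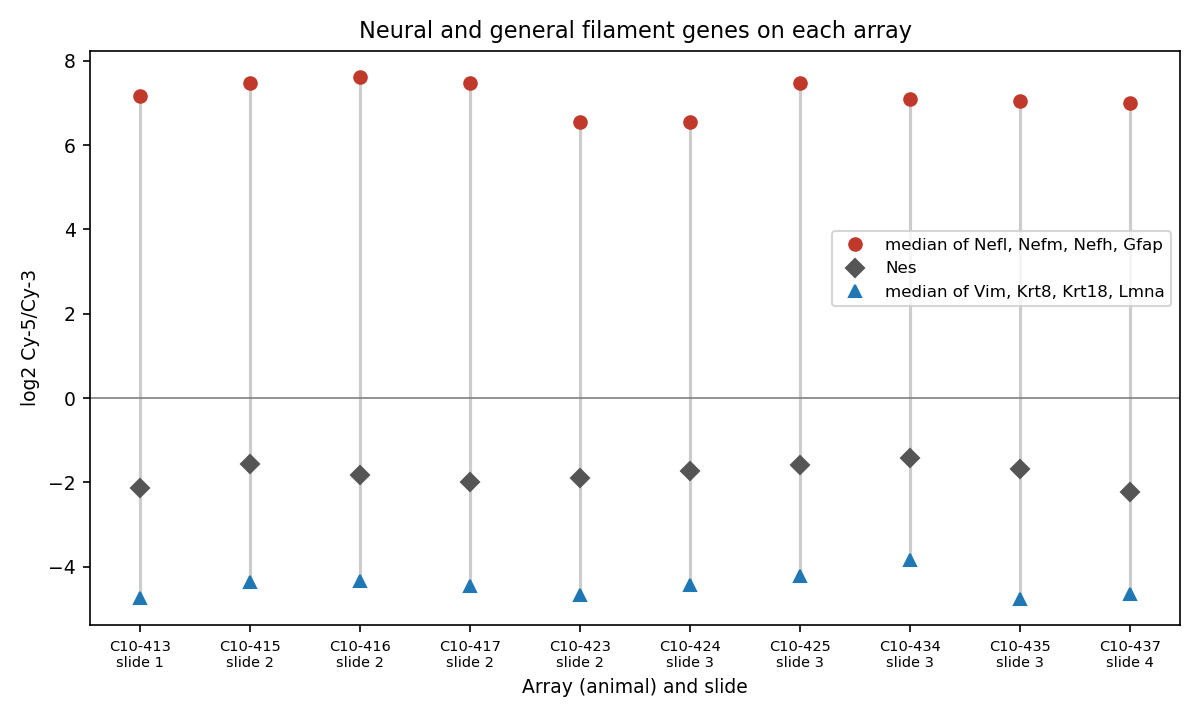
Median log2 Cy-5/Cy-3 of the neural genes (circles), of the general genes (triangles) and the value of Nes (diamonds) on each array, with the slide under each animal. The neural median lies 10.95 to 11.9 above the general median on the 10 arrays, and Nes lies between them on every array.

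The 2 slides of 4 arrays allowed a test of the technical batch. None of the 14 filament probes differed between slide 2 and slide 3 (limma, adjusted p of at least 0.604, the smallest being that of Vim), against 0.0755% of all probes, and 0 of 14 passed an unadjusted p of 0.05 against 9.92% of all probes. The means of Vim were -5.29 and -4.95 on slides 2 and 3, and those of Nefl 8.60 and 8.33. Slide and diet cannot be told apart on these arrays.

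Over the 10 arrays the spread of the general genes lay mostly in the hemibrain channel. After loess and scaling between arrays, the SD of the log2 Cy-3 level was 0.04 to 0.13 for the probes of Vim, Krt8, Krt18 and Lmna, and that of the Cy-5 level 0.17 to 0.33. Without C10-434 the Cy-5 SD ran from 0.11 for Krt18 to 0.31 for an Lmna probe. Over the 10 arrays Nefl and Nefm were the reverse, with an SD of 0.39 and 0.60 in the dim Cy-3 channel and of 0.25 and 0.16 in Cy-5. Among the general genes, r over the arrays was 0.96 for Krt18 with Lmna and 0.91 for Krt8 with Krt18 (0.94 and 0.85 without C10-434). Vim went with Lmna at r = -0.14, which became -0.64 without C10-434, and with Krt18 at -0.14, which became -0.61. Nefl moved with Lmna, at r = 0.88 (0.84 without C10-434), although their ratios have opposite signs. Each gene is taken here by its brightest probe. The ratio of the brightest Lmna probe correlated with those of its other probes at r = 0.65 and 0.66. Those other Lmna probes correlated with each other at 0.86, and their correlations with other genes are not given, so the values for Lmna hold for its brightest probe. These correlations describe 10 arrays that share their hybridisation and their dye normalization.

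The genes with the most similar profile over the arrays were looked up for Nefl, Gfap and Vim among 10532 other genes (10533 for Gfap) well above background in both channels on every array. For Nefl these were Homer2 (r = 0.96), a scaffold of the postsynapse, Adora1 (0.95), an adenosine receptor, and Camk2n1 (0.95), an inhibitor of the calcium/calmodulin kinase, and Homer2 remained among the first 3 without C10-434 (0.97). For Vim they were Znhit6 (0.94), Tcp11l2 (0.94) and Ginm1 (0.91), of which the first 2 remained without C10-434. For Gfap they were Pank4 (0.93), Sprr2b (0.88) and Srsf4 (0.85), and none of them was among the first 3 without C10-434, where Slc7a4, Psmd7 and Sipa1l1 led. The Gfap profile is that of its brighter probe, which cleared the background in Cy-3 on only 2 arrays. The SD of its log2 level was 0.80 in Cy-3 and 0.60 in Cy-5. A highest value among so many genes is high by selection, and these are descriptions over 10 arrays.

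The filament genes were set beside other genes of the same cytoskeleton. Of 20 other filament genes 19 had a probe, and 7 were higher and 11 lower in Cy-5 (limma, adjusted), where over all genes 41% were higher and 39.8% lower. Their median log2 ratio was -1.21, against 0.04 over all genes. Bfsp2, a filament protein of the eye lens, was highest at 3.47 ± 0.35, followed by Synm at 2.94 ± 0.36 (SD, n = 10), whose protein synemin joins vimentin or desmin filaments. The keratins Krt20, at -5.85 ± 0.65, and Krt19, at -5.38 ± 0.16 (SD, n = 10), were lowest, and Krt20 cleared the background in Cy-5 on only 4 arrays. Within this list of 20, close relatives of Vim were Des, the muscle filament, at -2.91 ± 0.42, and Prph, the filament of peripheral neurons, at 0.96 ± 0.28 (SD, n = 10). Both were named after their values were seen.

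Among 13 genes that link filaments to junctions and to other fibres, 5 were higher and 7 lower in Cy-5, with a median of -1.27. Over all genes 41% were higher and 39.8% lower, so calls in both directions were common. Evpl, a cell envelope plakin, was at 2.02, and Trim46, which bundles microtubules at the start of the axon, at 1.71. The plakophilins Pkp1 and Pkp3, which anchor keratins at desmosomes, were at -3.18 and -3.15. Among 14 partners and processing enzymes of the lamina, 2 were higher and 9 lower, with a median of -0.79. Icmt, which methylates prenylated lamins, was at 0.95 and Syne1, which ties the nucleus to the cytoskeleton, at 0.44, while Lbr, the lamin B receptor, was at -3.37 and Syne3 at -2.57. The members of both lists went in both directions, as genes over the whole array did.

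Marker genes of cell types were read on the same arrays. The counts of these and the following lists stand beside 41% of all genes higher and 39.8% lower. Of 10 neuron markers 9 were higher in Cy-5, with a median of 4.60, led by Gad1 at 8.38 and Map2 at 8.37, and Eno2 (2.21) and Syn1 (-0.27) were lowest, Syn1 being lower in Cy-5. All 8 astrocyte markers were higher, with a median of 5.47, from Gja1 (0.65) and Aldh1l1 (3.55) to Gjb6 (8.25) and the glutamate transporter Slc1a2 (10.1). Gjb6 cleared the background in Cy-3 on only 6 arrays. All 6 oligodendrocyte markers were higher, with a median of 4.81, Mobp (3.33) and Mag (4.04) being the lowest, and Mog, not well above background in Cy-3 on any array, was at least 29.4-fold higher. The neuron, astrocyte and oligodendrocyte genes are those expected of a hemibrain in Cy-5. In Cy-3, 7 of the 10 neuron, 6 of the 8 astrocyte and 5 of the 6 oligodendrocyte markers cleared the background on every array. These counts give presence above background and not the level, which was lower in Cy-3 for all of these markers but Syn1. One label calls the Cy-3 RNA a hemibrain pool, and the methods name a commercial reference RNA. Which RNA Cy-3 held was not tested.

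The mesenchyme, epithelium and proliferation lists had medians of the same sign as the general filament genes. All 8 mesenchyme markers were lower in Cy-5, with a median of -4.81, from Acta2 (-2.26) and Tagln (-3.18) to Col1a1 (-5.58) and S100a4 (-6.37). Of 8 epithelium markers, 5 were lower and 1 higher (Cdh1 at 1.43, named after its value was seen), with a median of -3.12. Krt7 and Krt19 are shared with the filament list. Epcam was lowest at -6.30, while Grhl2 and Krt7 stood at -3.11 and -3.13. Epcam cleared the background in Cy-5 on only 4 arrays and Grhl2 on only 3. Of 8 proliferation genes 7 were lower, with a median of -5.76. Ccnb1 was at -7.67 but cleared the background in Cy-5 on only 1 array, so the size of its ratio is uncertain. Aurkb, not well above background in Cy-5 on any array, was at least 80.6-fold lower. Cdk1 was at -3.18 and Bub1 at 0.14 (adjusted p = 0.078, limma). In Cy-5, 2 of the epithelium markers cleared the background on every array and 2 on none. Their part in the low ratios of Vim, Krt8 and Krt18 was not tested.

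Nes did not have the sign of its own list. All 7 neural progenitor genes were higher in Cy-5, from Sox1 (0.38) and Pax6 (0.48) to Fabp7 (5.51). Their median of 2.40 is the value of Prom1, which ran from 0.44 to 4.41 and cleared the background in Cy-3 on only 3 arrays. Prom1 and Msi1 (0.94) are named after their values were seen. Sox2 is a transcription factor of stem cells and of adult astrocytes. It was not well above background in Cy-3 on any array, and was at least 55.1-fold higher in Cy-5. Of 6 endothelium markers 5 were higher, with a median of 2.99, from Flt1 (2.16) to Cdh5 (4.98) and Cldn5 (5.30). Cdh5 cleared the background in Cy-3 on only 4 arrays. Pecam1 was at -0.30 (adjusted p = 0.070, limma). The lists were chosen with earlier results of these data known, and their counts and medians are descriptions.

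**Figure D5:**
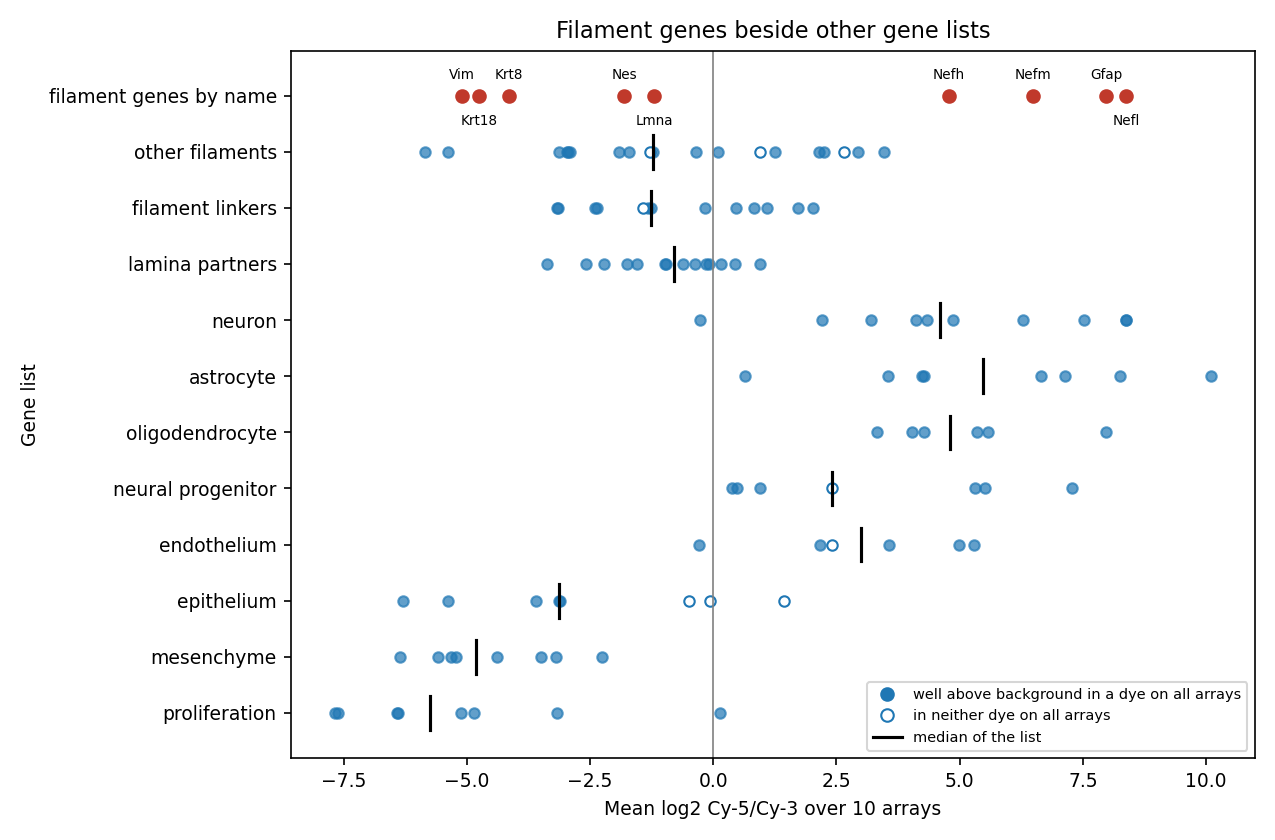
Mean log2 Cy-5/Cy-3 over the 10 arrays of each filament gene by its brightest probe (top line) and of each gene of the other lists, with a bar at the median of each list. The medians of the neuron, astrocyte and oligodendrocyte lists lie at 4.60, 5.47 and 4.81 and those of the epithelium, mesenchyme and proliferation lists at -3.12, -4.81 and -5.76.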

How the data were processed

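RNA of 10 mouse hemibrains was measured on Agilent 4x44k dual dye arrays. The authors scanned the slides, extracted the spots (Feature Extraction 10.10.1.1 per the file headers, grid build mm9) and deposited the signals of each dye as intensity on a linear scale, background-corrected and dye-normalized within the array in the processed signals. The deposited log10 ratio and the authors' table of log2 ratios were set against the processed signals: the table matched log2 Cy-5/Cy-3 within 0.01 for 100.0% of probes on every array, with column medians between -0.052 and 0.10, so its direction and scale are known and its centring follows the processed signals. The deposited flags for outliers and for spots well above background were used as they are.

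Outlier spots and control spots were left out, the spots of a probe averaged on the log2 scale, and a probe was well above background where at least 0.5 of its spots carried the flag. Probes were named by accession through RefSeq (GRCm38.p6, names only, apart from the promoter table), which matched 27198 of 41174 probes (66.1%) and 18539 genes, each represented by its brightest probe. The mean ratio against 0 over 10 arrays, and slide 2 against slide 3, were tested with limma 3.58.1 in R 4.3.3 with Benjamini-Hochberg adjustment over all probes, called at 0.05, after tests on simulated data. Channel levels were taken after loess and Aquantile scaling, and bounds for dim probes compare the mean level of the bright channel with the lowest level well above background in the dim channel. The genes named were the 10 filament genes, the 2 highest and the 2 lowest genes of each list among those well above background in either dye on all arrays, and the 3 genes most like Nefl, Gfap and Vim. The value of 1 gene that this rule names is not reported here. The filament genes and the lists were chosen with earlier results of these data known. Alternatives were loess (span 0.3), median centring, normexp (offset 50, on median signals), floored signals (floor 0.5, offset 50), the authors' table, a filter on dim probes, all probes of a gene, a log2 limit of 1, slide as a random block and leaving out arrays. Diet was not compared.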

Additional observations from a re-analysis of the deposited data

Results flagged for a closer look

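The log2 ratio of Nefm was 7.81 on C10-434 and 5.96 to 6.76 on the other 9 arrays, and the gap to the next array was 0.57 of the whole range, above the critical value of Dixon's test for 10 samples. On that array the Cy-5 signal of Nefm was 8465 and its Cy-3 signal 37.7, both the lowest of the 10 arrays, and the Cy-3 spots were not well above background. The SD over the 10 Nefm spots was also largest there, at 0.32. The other 14 measures tested in this way, the ratios of the 13 other probes and the contrast of neural with general genes, had no array set apart, and chance alone sets apart about 1 group in 20.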

How the results depend on the processing

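Each of the 9 filament genes kept its direction and passed the test (limma, adjusted p of at most 1.98e-05) under each of the 9 or 10 alternatives run for it, with means of 7.04 to 8.58 for Nefl, 4.76 to 6.72 for Nefm, 3.85 to 5.01 for Nefh, 3.78 to 8.17 for Gfap, -1.85 to -1.35 for Nes, -5.13 to -5.03 for Vim, -4.70 to -3.76 for Krt8, -4.79 to -4.46 for Krt18 and -2.20 to -1.14 for Lmna. With all probes of a gene, the mean is that of the median over its probes, which was not itself tested. The p taken there is the largest of its single probes. Gfap and Nefm had no value when only probes well above background in both channels on every array were kept. The contrast of neural with general genes, 11.8 in the median, was 9.33 with normexp, 9.81 with floored signals, 11.0 over probes well above background in both channels, and 10.8 with all probes of a gene, with Nes counted as neural, or with the mean in place of the median. Called probes numbered 15398 higher and 16283 lower in Cy-5, 8282 and 8104 under the filter, which tests fewer probes, and 8433 and 9515 with a log2 ratio of at least 1 in size. The 31 probes that differed between the slides became 0 with normexp and 0 with floored signals, and 0 to 18 when each array of slides 2 and 3 was left out in turn (2 without C10-415, 18 without C10-423, 0 without any of the other 6), with no filament probe called. For these moves the cause was not tested, and normexp gave ratios that correlated with the processed ratios with r as low as 0.49 on an array. Slide as a random block, run for single genes after seeing the data, changed no call (consensus correlation 0.028). Cy-5 and Cy-3 were compared within each array, as a ratio. No pairing of arrays was possible because the arrays form 1 group. Brightness limits the ratios of Nefl, Nefm and Gfap, whose Cy-3 spots were dim.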
